A study of Homo sapiens with 18 samples.

Results

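The epidermal growth factor receptor (EGFR) system was followed through 9 genes: the receptors EGFR, ERBB2 and ERBB3, the ligands AREG (amphiregulin), EREG (epiregulin), TGFA (transforming growth factor alpha) and HBEGF (heparin-binding EGF-like growth factor), and the inhibitors LRIG1 and ERRFI1. These genes were taken by name, as receptor, ligand and inhibitor genes of the family, from 25721 genes listed in the 3 expression tables of the series. They are not all genes of the family and were chosen with earlier results of these data known. ERBB receptors are tyrosine kinases that pair when a ligand binds and then drive the ERK and PI3K cascades. Their ligands are made as membrane precursors and released by proteases such as ADAM17. LRIG1, a transmembrane protein with leucine-rich repeats, promotes receptor degradation, and ERRFI1 (also called MIG6) binds the active kinase and blocks it. In triple-negative breast cancer (TNBC), which lacks hormone receptors and ERBB2 amplification, EGFR is often abundant.

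The expression profiles were RNA-seq libraries of human TNBC cell lines, 18 in all, with 3 in each of 6 groups. BT-549 cells, which are BRCA1 wild-type, carried an shRNA (a hairpin RNA that directs breakdown of its target transcript) against PBRM1, a subunit of the PBAF chromatin remodeler, and were compared with their own control group. A second pair of BT-549 groups carried an shRNA against IRF1, a transcription factor of the interferon response, or its control. MDA-MB-436 cells, which carry a BRCA1 mutation, held a tetracycline-inducible shRNA against MUC1 (tet-MUC1shRNA) and were given 0.1% DMSO as vehicle or 500 ng/ml doxycycline (DOX). The MUC1 gene encodes a transmembrane mucin whose MUC1-C subunit was the subject of the study. The stated purpose of the 3 silencing experiments was to compare genes under the control of MUC1-C, PBRM1 and IRF1. All lines carried puromycin resistance, and each knockdown rested on 1 line. The replicates were triplicate cultures, so p-values refer to no spread beyond that between cultures. In BT-549 the spread used was that of genes at a like expression level and not each gene's own, which makes very small p-values possible. A DOX-treated group with a control hairpin was not used here, so the effects of DOX and of MUC1 silencing cannot be told apart.

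The targeted transcripts were lower in each experiment. PBRM1 fell from a mean of 11.9 to 2.96 TPM (a transcript level corrected for length and scaled to a fixed total per library), IRF1 from 4.75 to 1.17 TPM, and MUC1 from 5.63 to 3.03 TPM with DOX. The hormone receptor genes ESR1 and PGR were at or below 0.106 TPM in every library. Leukocyte, endothelial and erythroid markers summed to under 1 TPM in every library except for the leukocyte markers in MDA-MB-436, which summed to 4.16 to 4.81 TPM with vehicle and 7.45 to 11.1 TPM with DOX, and CD3E was at 0 in all libraries. The share of TPM held by short noncoding RNAs was 65.6% to 69.7% across libraries of the PBRM1 experiment. It was 83.1% to 86.9% for IRF1 and 11.2% to 14.2% for MDA-MB-436. Other genes of the BT-549 tables are therefore listed at low TPM, and TPM levels were compared only within a table. Library depth is not kept by TPM.

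All 9 genes are placed here on GRCh38 with the GENCODE annotation. EGFR lies at chr7:55019021-55211628 on the plus strand, ERBB2 at chr17:39687914-39730426 on the plus strand and ERBB3 at chr12:56076799-56103505 on the plus strand. AREG (chr4:74445134-74455009) and EREG (chr4:74365143-74388751) are neighbors on the plus strand of chromosome 4, 56383 bases apart, with the start of 1 other gene between them. TGFA lies at chr2:70447280-70554193, HBEGF at chr5:140332843-140346631, LRIG1 at chr3:66378797-66501263 and ERRFI1 at chr1:8004404-8026308, all on the minus strand. LRIG1 is overlapped on the opposite strand by SLC25A26, and ERBB2 by PGAP3 and MIEN1. The library kit keeps strand, but the strand setting of the read counting is not given in the sources used here, so reads of overlapping genes cannot be told apart.

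AREG and EREG were both at lower levels in one experiment and parted in another. The LRIG1 groups did not overlap in any of the 3 experiments. Of tested genes, 62.0% with PBRM1shRNA, 33.9% with IRF1shRNA and 59.2% with DOX had groups without overlap. Promoters of AREG, EREG and LRIG1 are printed below as RefSeq windows of GRCh38.p14 that run from 250 bases before to 50 bases after a start site. Of the 9 genes, 8 had such windows, 13 in all. Capitals mark a cAMP response element (CRE, TGACGTCA), read on both strands.
AREG, chr4:74444886-74445185, plus strand: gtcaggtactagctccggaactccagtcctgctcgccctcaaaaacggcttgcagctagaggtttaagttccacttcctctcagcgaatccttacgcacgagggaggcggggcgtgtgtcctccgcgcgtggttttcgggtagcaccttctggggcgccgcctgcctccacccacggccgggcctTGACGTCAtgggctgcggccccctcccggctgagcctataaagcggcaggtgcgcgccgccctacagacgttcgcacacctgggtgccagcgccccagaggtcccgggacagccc
EREG, chr4:74364895-74365194, plus strand: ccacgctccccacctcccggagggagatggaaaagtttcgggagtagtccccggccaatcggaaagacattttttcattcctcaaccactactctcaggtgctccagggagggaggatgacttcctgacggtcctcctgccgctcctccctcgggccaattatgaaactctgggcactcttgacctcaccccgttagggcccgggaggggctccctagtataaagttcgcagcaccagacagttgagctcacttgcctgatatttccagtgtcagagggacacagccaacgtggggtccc
LRIG1, chr3:66501072-66501371, minus strand: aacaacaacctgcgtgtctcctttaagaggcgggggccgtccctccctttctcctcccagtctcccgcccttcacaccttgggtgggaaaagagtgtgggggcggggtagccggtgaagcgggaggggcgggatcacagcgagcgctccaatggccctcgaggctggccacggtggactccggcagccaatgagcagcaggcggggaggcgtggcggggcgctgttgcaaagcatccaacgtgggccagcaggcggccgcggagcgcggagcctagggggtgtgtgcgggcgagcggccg
The CRE letters stood 65 bases before the AREG start site and in no other window of the 8 genes, and 1.85% of 35116 promoter windows held them. AP-1 letters (TGANTCA), held by 7.71% of all windows, were found in windows of EGFR, ERBB2 and LRIG1. The EGFR and LRIG1 matches lay in windows 90818 and 95496 bases from the annotated gene start, which are not printed here. The EGFR window nearest the gene start and the other LRIG1 windows held none. The letters of an interferon-stimulated response element (ISRE, GAAANNGAAA) were found in 0 of the 8 genes and so in none of their 13 windows, against 3.57% of all windows. The CRE and AP-1 letters both start with TGA and end with TCA and differ between these ends. These matches describe the windows and say nothing about binding.

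**Figure D1:**
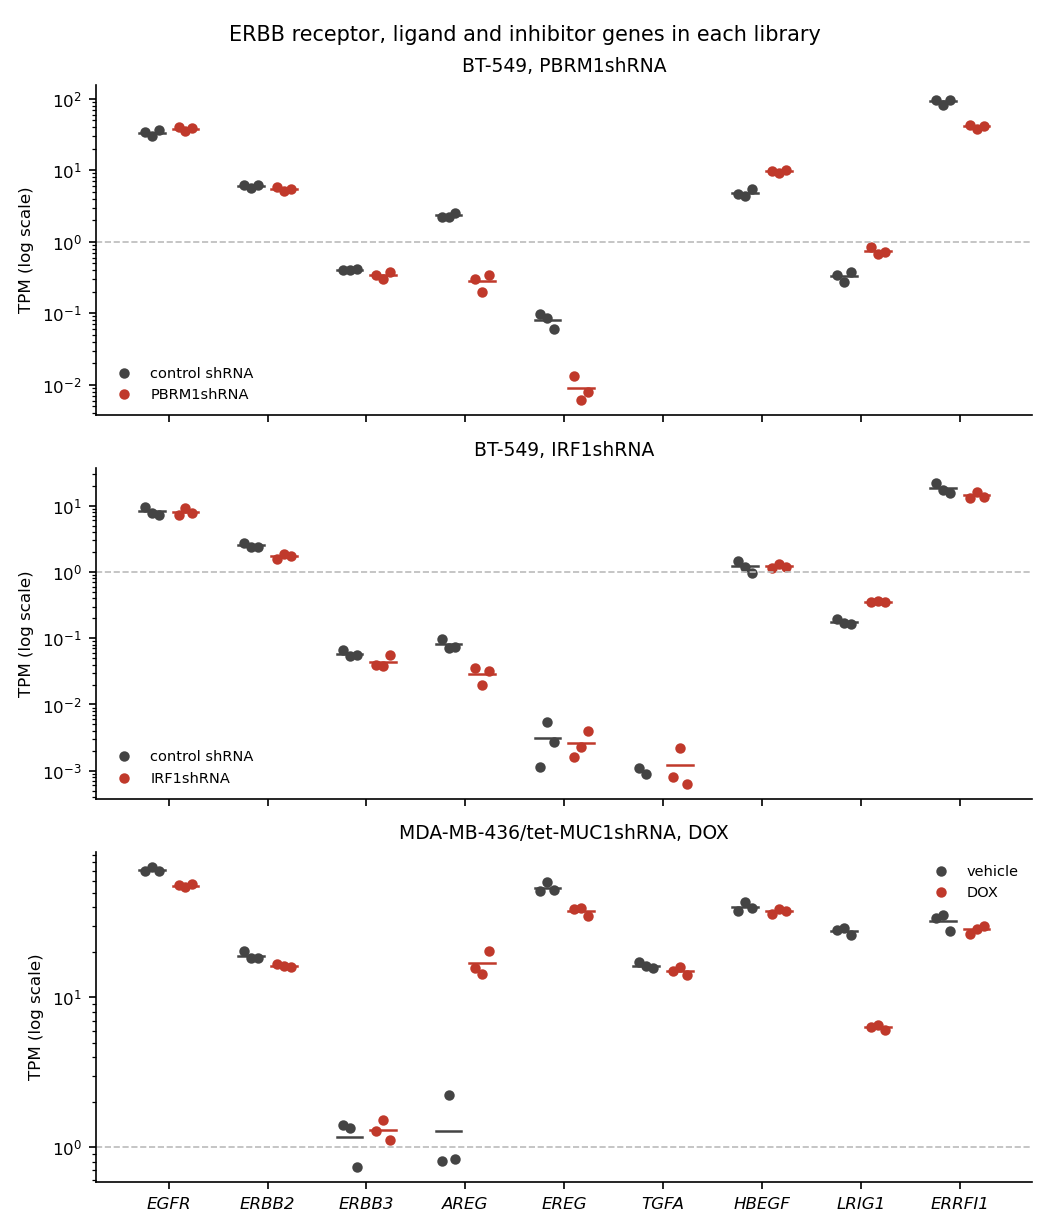
TPM on a log scale for the 9 genes in each library, with 3 control or vehicle libraries (grey) and 3 silenced libraries (red) per gene, a short bar at each mean and a dashed line at 1 TPM. Values of 0 are not drawn. AREG lies lower with PBRM1shRNA and higher with DOX, and LRIG1 lies higher with PBRM1shRNA or IRF1shRNA and lower with DOX.

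The receptor most abundant per transcript length was EGFR in all 3 tables. In MDA-MB-436 vehicle cells the mean levels ran from EGFR (71.4 TPM) through EREG (54.2), HBEGF (40.2), ERRFI1 (32.4), LRIG1 (27.7), ERBB2 (19.0) and TGFA (16.3) to AREG (1.29) and ERBB3 (1.16). Neighbors in this order did not overlap over the 3 libraries, except ERRFI1 with LRIG1 and AREG with ERBB3. In the control group of the PBRM1 experiment the order was ERRFI1 (92.2 TPM), EGFR (33.4), ERBB2 (5.935), HBEGF (4.85), AREG (2.33), ERBB3 (0.406), LRIG1 (0.334) and EREG (0.0807), with TGFA listed at 0 and no overlap between neighbors. In the control group of the IRF1 experiment ERRFI1 (18.2 TPM), EGFR (8.235), ERBB2 (2.505) and HBEGF (1.21) led, and LRIG1 stood at 0.175 TPM, AREG at 0.0814, ERBB3 at 0.0588, EREG at 0.0031 and TGFA at or near 0.

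Silenced and control libraries were tested with limma on log2(TPM + 1) over all genes at 1 TPM or more in at least 3 of 6 libraries, and "higher", "lower", "rose" and "fell" of a tested gene mean an adjusted p (Benjamini-Hochberg) under 0.05. Of the 9 genes, 5 passed the filter in the PBRM1 experiment, 4 in the IRF1 experiment and 9 in MDA-MB-436. With PBRM1shRNA, 1 was higher (HBEGF) and 2 were lower (AREG and ERRFI1), where 24.6% of 10639 tested genes were higher and 34.8% lower. AREG, which passed the filter only through its controls, and ERRFI1 also changed more than 2-fold on this scale, as did 4.87% of tested genes, and 3 of the 5 had groups that did not overlap, against 62.0% of tested genes. With IRF1shRNA, 0 were higher and 1 was lower (ERBB2), where 5.76% of 9135 tested genes were higher and 18.5% lower. By limma at an unadjusted p under 0.05, 0 of the 4 were higher and 2 were lower (ERBB2 and ERRFI1). In that experiment 0 passed 2-fold, against 1.84% of tested genes, and 1 had groups that did not overlap, against 33.9%. With DOX, 1 of the 9 was higher (AREG) and 4 were lower (EGFR, ERBB2, EREG and LRIG1), where 27.0% of 13229 tested genes were higher and 23.4% lower. AREG and LRIG1 passed 2-fold there, against 2.68% of tested genes, and 5 of the 9 had groups that did not overlap, against 59.2%. Most of these shares are near the background of their experiment and are no result about the 9 genes as a group, so the genes are described singly.

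In BT-549 the background counts moved with the scale. With IRF1shRNA, median-of-ratios scaling of the same 9135 genes gave 3119 higher and 3184 lower, and quantile scaling 3621 and 2795, compared with 526 and 1693 on TPM as deposited. With short noncoding RNAs removed before scaling, which also let 12524 genes pass the filter, 4201 were higher and 3727 lower. With PBRM1shRNA, quantile scaling of the same 10639 genes gave 4548 higher and 3467 lower, compared with 2620 and 3707. Removing short noncoding RNAs gave 2538 higher and 5988 lower among 12274 genes, and the median over all genes moved from -0.05 to -0.155 (log2). Ratios of 2 genes within a library do not depend on this scale and are given beside the tests.

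Among the receptors, EGFR fell with DOX and did not pass the main test, which has no replicate block, on TPM as deposited in BT-549. In MDA-MB-436 it was at 69.4, 74.7 and 70.2 TPM with vehicle and at 55.9, 54.8 and 56.9 TPM with DOX. All vehicle libraries were above all DOX libraries, a log2 fold of -0.35 ± 0.043 (SE, n = 3 per group; limma, adjusted p = 1.87e-04). With PBRM1shRNA, EGFR was at 40.4, 35.03 and 38.8 TPM compared with 34.1, 29.8 and 36.3 TPM in controls, and the groups overlapped. The log2 fold was 0.19 ± 0.087 (SE, n = 3 per group; limma, adjusted p = 0.055). With the number in the column names as a replicate block, the same fold had an adjusted p of 1.41e-04 in limma. It was also called with median-of-ratios scaling (limma, log2 fold 0.24, adjusted p = 7.34e-05) and quantile scaling (0.14, adjusted p = 0.00427), and without control replicate c (adjusted p = 0.029) or PBRM1shRNA replicate 2 (0.0252), but not with short noncoding RNAs removed (0.134). With IRF1shRNA, EGFR averaged 8.01 ± 1.03 TPM (SD, n = 3) compared with 8.235 ± 1.235 TPM, a log2 fold of -0.03 with a 95% interval from -0.32 to 0.25. In bulk RNA, fewer cells with a transcript and less transcript per cell cannot be told apart.

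ERBB2, which has no known ligand and acts as the preferred partner of the other receptors, was lower with IRF1shRNA and with DOX by small amounts. With IRF1shRNA it was at 1.57, 1.85 and 1.735 TPM compared with 2.77, 2.35 and 2.40 TPM in controls, without overlap. The log2 fold was -0.37 ± 0.12 (SE, n = 3 per group; limma, adjusted p = 0.0112). This call was lost without control replicate 2 (limma, adjusted p = 0.0547) and without IRF1shRNA replicate 1 (0.133) or replicate 3 (0.104). It was also lost without moderation (limma, adjusted p = 0.0673) and with the replicate block (0.128). The call was kept with short noncoding RNAs removed (limma, adjusted p = 5.56e-05), median-of-ratios scaling (4.3e-05) and quantile scaling (1.65e-04). With DOX, ERBB2 was at 16.7, 16.25 and 15.9 TPM compared with 20.4, 18.5 and 18.3 TPM, a log2 fold of -0.21 ± 0.061 (SE, n = 3 per group; limma, adjusted p = 0.0175). That call was lost without vehicle replicate 1 (limma, adjusted p = 0.0648) or DOX replicate 3 (0.0546). With PBRM1shRNA, ERBB2 was at 5.46 ± 0.314 TPM compared with 5.935 ± 0.315 TPM (SD, n = 3 each), and it did not pass the test (limma, log2 fold -0.10, adjusted p = 0.315). With short noncoding RNAs removed it was lower (limma, -0.19, adjusted p = 0.0106).

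The ratio of ERBB2 to EGFR within a library was smaller in the silenced groups of both BT-549 experiments. It was 0.1685 to 0.187 in PBRM1 controls and 0.142 to 0.1465 in silenced libraries, and 0.288 to 0.3305 in IRF1 controls and 0.202 to 0.227 in silenced libraries. In MDA-MB-436 the ratio was 0.247 to 0.293 with vehicle and 0.279 to 0.299 with DOX, with overlap. With 3 libraries against 3, an exact permutation test of a ratio cannot give a two-sided p below 0.1, so the ratios are described without a test. ERBB3, the kinase-impaired receptor for neuregulins, was below 1 TPM in all BT-549 libraries. In MDA-MB-436 it was at 1.16 ± 0.373 TPM with vehicle and 1.31 ± 0.1975 TPM with DOX (SD, n = 3 each), a log2 fold of 0.11 with a 95% interval from -0.28 to 0.50.

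Among the ligands that passed the filter, AREG had the largest fold with PBRM1shRNA and with DOX, in opposite directions. With PBRM1shRNA it was at 0.305, 0.199 and 0.343 TPM compared with 2.23, 2.23 and 2.54 TPM in controls. The mean was 8.27-fold lower, and the groups did not overlap. AREG passed the filter only through its control group, so its call after that filter was favored by the choice of genes and is no support for the difference. On log2(TPM + 1) the fold was -1.38 ± 0.073 (SE, n = 3 per group), and with a pseudocount of 0.1 it was -2.69. With no filter on low values, the adjusted p was 1.94e-05 (limma). With IRF1shRNA the AREG values of 0.0362, 0.0198 and 0.0318 TPM were all below those of controls (0.09895, 0.0724 and 0.0729 TPM), but AREG did not pass the filter. With no filter on low values, its log2 fold there was -0.07 (limma, adjusted p = 0.0141). The authors' mean normalized count of AREG was 58.3 in the PBRM1 experiment and 12.7 in the IRF1 experiment, so the second difference rests on few reads.

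With DOX, AREG was at 15.8, 14.4 and 20.4 TPM compared with 0.811, 2.22 and 0.833 TPM with vehicle. The mean was 13.1-fold higher, and every DOX library exceeded every vehicle library although vehicle replicate 2 stood above the other two. The log2 fold was 3.01 ± 0.22 (SE, n = 3 per group; limma, adjusted p = 9.62e-06), the rank 5 highest of 13229 tested genes, and without vehicle replicate 2 it was 3.28. AREG passed the filter with 4 of 6 libraries, 3 of them DOX libraries, and the vehicle libraries alone would not have met it. Its call and rank after that filter were favored by the choice of genes and are no support for the difference. With no filter on low values, the adjusted p was 2.09e-04 (limma). Among cell type markers, luminal epithelial genes (mainly KRT8 and KRT18) summed to 838 to 868 TPM with vehicle and 1652 to 1727 TPM with DOX, and basal or mesenchymal genes (mainly VIM) to 2262 to 2387 and 1507 to 1581 TPM. Their part in the change of AREG was not tested. In BT-549 the luminal genes summed to 4.01 to 4.685 TPM in PBRM1 controls and 34.1 to 39.9 TPM with PBRM1shRNA, where AREG was lower. That sum was mainly KRT18 (2.59 to 33.1 TPM over the libraries) and KRT8 (0.732 to 6.51 TPM), and EPCAM, CDH1, KRT19 and GATA3 stayed under 1 TPM. In the IRF1 experiment the luminal genes summed to 1.74 to 2.39 TPM in controls and 0.834 to 1.015 TPM with IRF1shRNA.

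EREG, the neighbor of AREG, fell with DOX while AREG rose. It was at 39.1, 39.6 and 35.15 TPM with DOX compared with 51.4, 59.0 and 52.2 TPM with vehicle, without overlap. The log2 fold was -0.50 ± 0.067 (SE, n = 3 per group; limma, adjusted p = 2.89e-04). The AREG to EREG ratio within a library was 0.0158 to 0.0376 with vehicle and 0.363 to 0.580 with DOX. With PBRM1shRNA both ligands were at lower levels, and the ratio was 23.1 to 41.8 in controls and 23.3 to 43.1 in silenced libraries. EREG was below 0.1 TPM in that table and did not pass the filter. With no filter on low values, its log2 fold was -0.10 (limma, adjusted p = 0.00205). The authors' mean normalized count of EREG there was 8.24, so the difference rests on few reads.

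HBEGF was the ligand transcript that rose with PBRM1shRNA. It was at 9.79, 9.26 and 9.92 TPM compared with 4.68, 4.39 and 5.50 TPM in controls, a 1.99-fold higher mean. The log2 fold was 0.87 ± 0.088 (SE, n = 3 per group; limma, adjusted p = 9.35e-22). From the spread of HBEGF alone, the adjusted p was 0.00491 (limma without moderation). With IRF1shRNA the log2 fold of HBEGF was 0.02 with a 95% interval from -0.17 to 0.21, and with DOX it was -0.10 with an interval from -0.22 to 0.03. TGFA was at 16.3 TPM with vehicle and 14.95 TPM with DOX (limma, log2 fold -0.12, adjusted p = 0.17), and it was listed at 0 in all libraries of the PBRM1 table and at or near 0 in the IRF1 table.

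**Figure D2:**
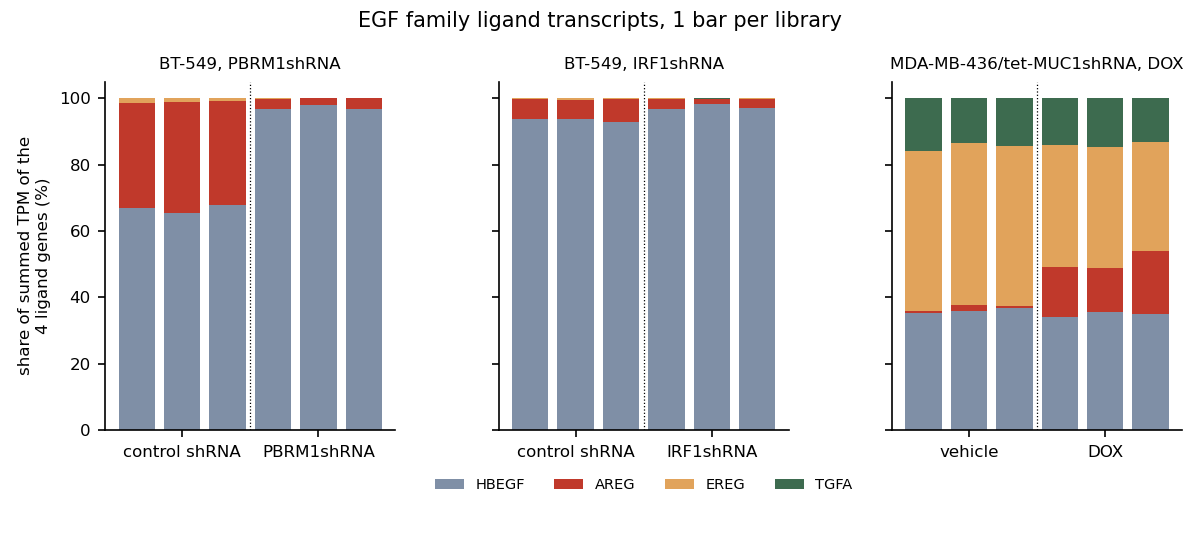
Share of the summed TPM of AREG, EREG, TGFA and HBEGF taken by each ligand gene (%), 1 stacked bar per library, controls left and silenced libraries right of the dotted line. AREG averaged 32.2% of ligand TPM in PBRM1 controls and 2.82% in PBRM1shRNA libraries, and 1.12% with vehicle and 15.7% with DOX in MDA-MB-436.

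As shares of the TPM of the 4 ligands, AREG took less with PBRM1shRNA and more with DOX. In the PBRM1 experiment HBEGF took 65.4% to 67.9% of ligand TPM in controls and 96.6% to 97.8% in silenced libraries, and AREG 31.35% to 33.3% and 2.10% to 3.34%. In the IRF1 experiment AREG took 5.78% to 6.93% in controls and 1.45% to 3.01% in silenced libraries, so the 2 control groups of BT-549 themselves differed. In MDA-MB-436 the AREG share was 0.757% to 1.84% with vehicle and 13.2% to 19.0% with DOX, and the EREG share 48.0% to 49.0% and 32.8% to 36.8%. The HBEGF and TGFA shares there overlapped between groups. The summed TPM of the 4 ligands was 112 ± 7.365 with vehicle and 107 ± 1.24 with DOX (SD, n = 3 each), a difference within the spread. Relative to EGFR, the ligand sum was 1.54 to 1.61 with vehicle and 1.88 to 1.98 with DOX.

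Of the inhibitors, LRIG1 was lower with DOX and was at higher levels in both BT-549 knockdowns. With DOX it was at 6.37, 6.53 and 6.09 TPM compared with 28.0, 29.1 and 26.0 TPM with vehicle, a 4.37-fold lower mean. The log2 fold was -1.97 ± 0.066 (SE, n = 3 per group; limma, adjusted p = 1.57e-07), the rank 7 lowest of 13229 tested genes, and it ranged from -2.11 to -1.93 over 15 alternatives. The opposite-strand neighbor SLC25A26, a mitochondrial carrier gene, had a log2 fold of 0.34 ± 0.084 (limma, adjusted p = 0.00849) there, so the 2 overlapping genes moved in opposite directions.

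In BT-549, LRIG1 was under 1 TPM and did not pass the filter on the deposited scale. With PBRM1shRNA it was at 0.855, 0.6755 and 0.711 TPM compared with 0.346, 0.276 and 0.380 TPM in controls, a 2.24-fold higher mean. With IRF1shRNA it was at 0.346, 0.368 and 0.354 TPM compared with 0.192, 0.171 and 0.161 TPM in controls, a 2.04-fold higher mean. In neither experiment did the groups overlap, and the authors' mean normalized counts of LRIG1 were 106.5 and 283, so these differences rest on more than a few reads. With short noncoding RNAs removed before scaling, LRIG1 passed the filter in both experiments. It then rose by 0.65 ± 0.10 with PBRM1shRNA (log2 fold, SE; limma, adjusted p = 5.11e-06) and by 0.72 ± 0.076 with IRF1shRNA (adjusted p = 3.39e-06). The PBRM1 control libraries alone, at 1.09, 0.909 and 1.187 TPM on that scale, would not have met the filter. The PBRM1shRNA call after that filter was thus favored by the choice of genes and is no support for the difference. With no filter on deposited TPM, the adjusted p was 0.00134 with PBRM1shRNA and 0.00141 with IRF1shRNA (limma). SLC25A26 had log2 folds of -0.21 ± 0.077 (limma, adjusted p = 0.0118) and 0.09 ± 0.093 (adjusted p = 0.569) in these experiments. The LRIG1 to EGFR ratio was 0.00924 to 0.0105 in PBRM1 controls and 0.0183 to 0.0212 in silenced libraries, 0.0199 to 0.0222 and 0.0402 to 0.0481 in the IRF1 experiment, and 0.370 to 0.403 and 0.107 to 0.119 in MDA-MB-436.

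**Figure D3:**
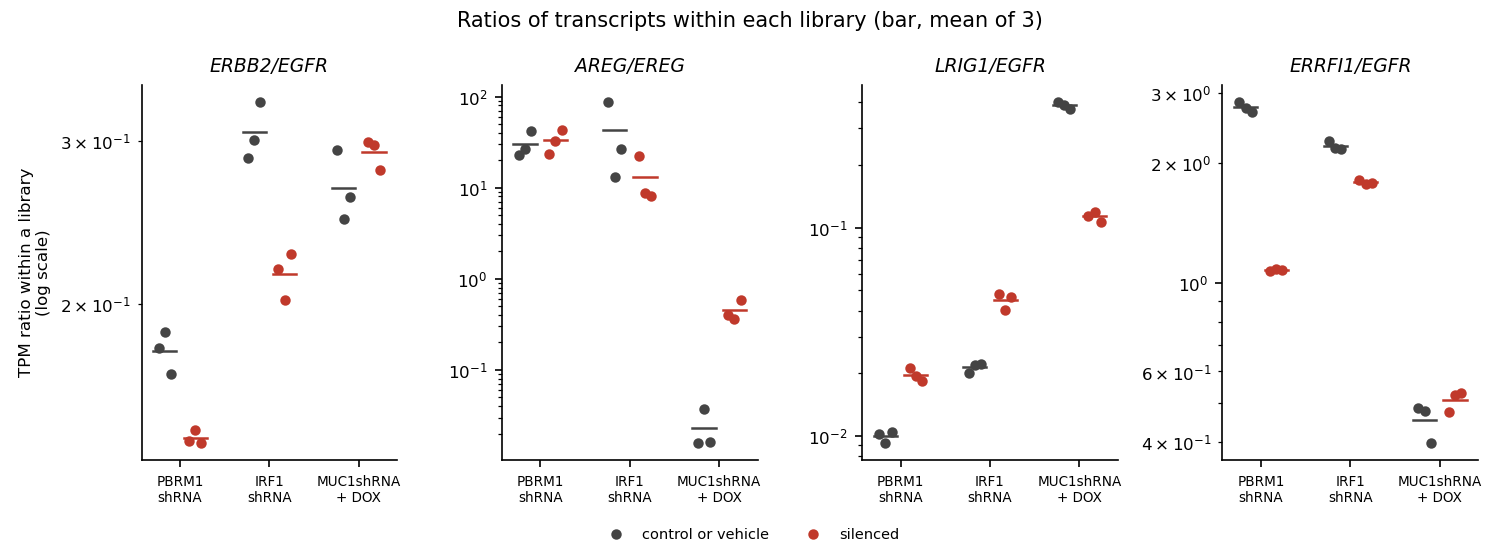
TPM ratios of 2 genes within each library (log scale, separate axis per panel), with 3 control or vehicle libraries (grey), 3 silenced libraries (red) and bars at the means. LRIG1/EGFR averaged 0.00996 and 0.0196 in the PBRM1 experiment, 0.0213 and 0.0448 in the IRF1 experiment, and 0.388 and 0.113 in MDA-MB-436, controls first.

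ERRFI1, itself induced by EGFR signaling, fell with PBRM1shRNA. It was at 43.35, 38.05 and 41.8 TPM compared with 97.2, 82.1 and 97.3 TPM in controls, a log2 fold of -1.15 ± 0.086 (SE, n = 3 per group; limma, adjusted p = 1.12e-38). From the spread of ERRFI1 alone, the adjusted p was 0.00364 (limma without moderation). The ERRFI1 to EGFR ratio was 2.68 to 2.85 in these controls and 1.07 to 1.09 in silenced libraries. With IRF1shRNA, ERRFI1 averaged 14.3 TPM compared with 18.2 TPM, and the log2 fold of -0.32 did not pass the test (limma, adjusted p = 0.11). The ratio to EGFR was nevertheless 2.165 to 2.27 in IRF1 controls and 1.77 to 1.81 in silenced libraries, without overlap, and ERRFI1 fell under other scales (limma, adjusted p = 0.00195 with short noncoding RNAs removed, 1.24e-04 with median-of-ratios scaling and 0.00125 with quantile scaling). With DOX the log2 fold was -0.17 (limma, adjusted p = 0.131), and ERRFI1 passed the test without vehicle replicate 3 (adjusted p = 0.0104). The genes whose pattern over the 18 libraries was most like that of ERRFI1, by root mean square difference of centered log2(TPM + 1) over 8893 genes, were ARHGAP29 (0.0702), EPS8 (0.0768) and GRB10 (0.0847).

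**Figure D4:**
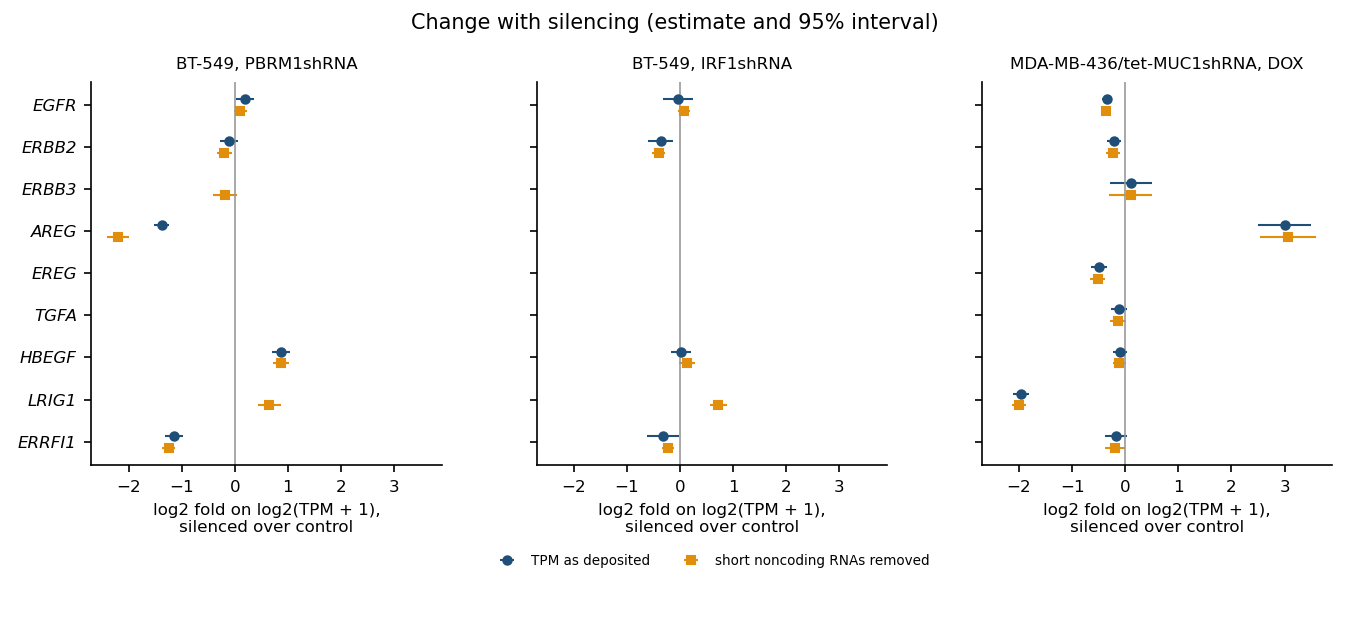
Log2 fold of silenced over control on log2(TPM + 1) with its 95% interval for each gene that passed the filter, on TPM as deposited (blue circles) and with short noncoding RNAs removed (orange squares). LRIG1 appears in BT-549 only on the second scale, at 0.65 and 0.72, compared with -1.97 on TPM as deposited in MDA-MB-436.

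Other genes of the pathway were described through 5 lists. Of 8 other ERBB receptor and ligand genes, NRG1, a neuregulin that binds ERBB3, was the member tested in all experiments. It fell with PBRM1shRNA from 12.1 to 7.05 TPM (log2 fold -0.70 ± 0.088, SE, n = 3 per group; limma, adjusted p = 2.14e-14) and with DOX from 13.5 to 11.5 TPM (-0.21 ± 0.060, adjusted p = 0.0169). With IRF1shRNA it was at 3.04 compared with 3.47 TPM, and as the one member tested it did not pass (limma, also not at an unadjusted p under 0.05). NRG2 was at 1.27 TPM with vehicle and 0.246 TPM with DOX, and it passed the filter only through the vehicle group. BTC (betacellulin) was the other member tested in MDA-MB-436, at 1.38 TPM in both groups.

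Of the ligand shedding genes, 2 rose and 3 fell among 7 tested with PBRM1shRNA, near the 24.6% and 34.8% of all tested genes. The proteases ADAM10 (log2 fold 0.53) and ADAM17 (0.22) rose, and TIMP3, which inhibits ADAM17, fell (-0.97) together with RHBDF2, a partner that ADAM17 needs to mature (-0.74). With IRF1shRNA 0 of 5 passed the test in limma, and 0 had an unadjusted p under 0.05. With DOX 1 of 8 rose, NRDC (0.21), and 0 fell, also at an unadjusted p under 0.05. Of 18 receptor ubiquitination, sorting and inhibition genes tested in each experiment, 2 rose and 9 fell with PBRM1shRNA, 0 rose and 3 fell with IRF1shRNA (limma; 1 higher at an unadjusted p under 0.05), and 5 rose and 5 fell with DOX. Of all tested genes, 24.6% rose and 34.8% fell with PBRM1shRNA, 5.76% and 18.5% with IRF1shRNA, and 27.0% and 23.4% with DOX. CBLB, a ubiquitin ligase for activated EGFR, fell with PBRM1shRNA (log2 fold -0.93). PTPN1, a phosphatase that acts on receptor tyrosine kinases, fell with PBRM1shRNA (-0.64) and IRF1shRNA (-0.49) and rose with DOX (0.44).

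Adaptor and signal transducer genes were split in direction. With PBRM1shRNA 4 rose and 7 fell among 27 tested, with a median log2 fold of 0.02 compared with -0.05 over all tested genes, of which 24.6% rose and 34.8% fell. PIK3R1, the regulatory subunit of PI3K, fell by 1.29 on the log2 scale and NRAS rose (0.65). With IRF1shRNA 0 rose (limma, and 0 at an unadjusted p under 0.05) and 7 fell among 26, where 5.76% and 18.5% of all tested genes did, with VAV2 (-0.66) and PIK3R1 (-0.61) lowest. With DOX 10 rose and 8 fell among 28, where 27.0% and 23.4% of all tested genes did, and PLCG1 (-0.79) and SHC1 (-0.52), both of which bind activated EGFR, were lowest.

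ERK-induced target genes, transcripts such as EGR1 that rise when the cascade below EGFR is active, had more members lower than higher in each experiment. The list was chosen with earlier results of these data known, so its counts and medians are description and no support for a change. With PBRM1shRNA 16 fell and 2 rose among 20 tested, where 34.8% of all tested genes fell and 24.6% rose, and the median log2 fold was -0.42 compared with -0.05 over all tested genes. EGR1, an immediate early transcription factor, was at 7.77 TPM compared with 37.9 TPM in controls (log2 fold -2.15), and the ERK phosphatase gene DUSP4 at 1.99 compared with 5.53 TPM. With IRF1shRNA 9 fell and 0 rose among 18 (limma, and 0 rose at an unadjusted p under 0.05), where 18.5% of all tested genes fell and 5.76% rose, and the median was -0.29 compared with -0.06. CCND1 (cyclin D1, -1.80), DUSP4 (-1.60) and PHLDA1 (-1.08) passed 2-fold, of which DUSP4 passed the filter only through the control group (4.24 TPM compared with 0.72 TPM). With DOX 8 fell and 4 rose among 20, where 23.4% fell and 27.0% rose, and the median was -0.12 compared with 0.015. EGR1 (-0.96), FOSL1 (-0.70) and PHLDA1 (-0.70) fell and JUNB rose (0.63), FOSL1 from 589 to 361 TPM. The counts of genes that rose in these lists moved with the scale in BT-549, from 10 to 23 over all lists with PBRM1shRNA (17 with the replicate block on TPM as deposited) and from 0 to 20 with IRF1shRNA.

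**Figure D5:**
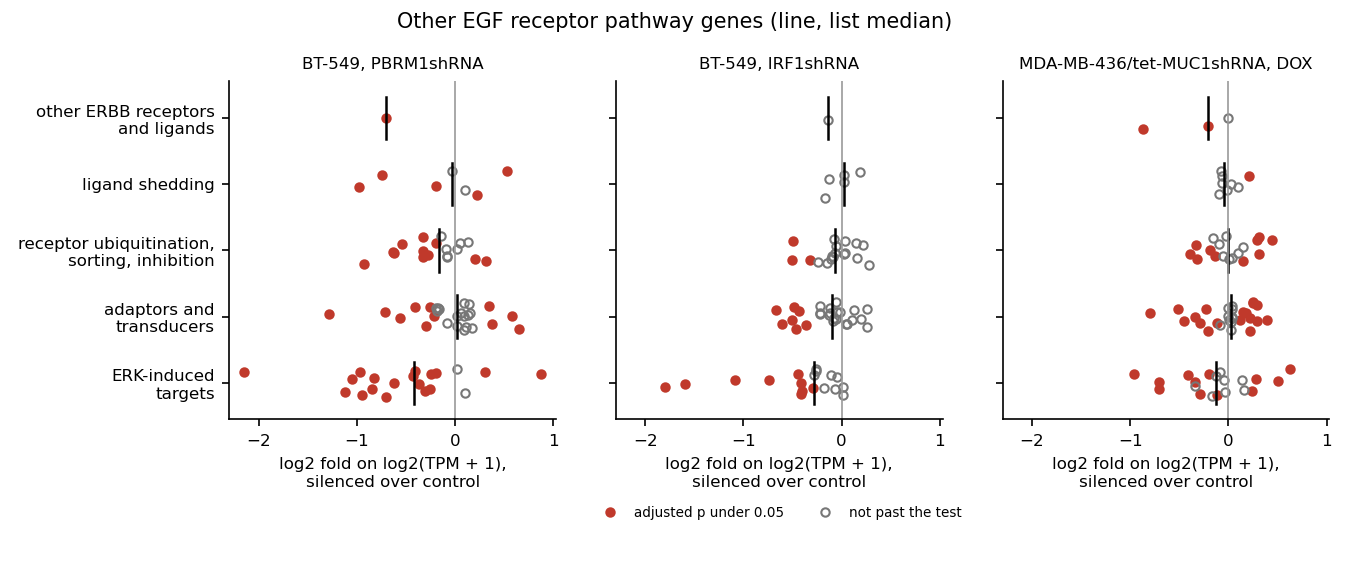
Log2 fold of silenced over control on log2(TPM + 1) for each tested gene of 5 EGFR pathway lists, filled red where the adjusted p was under 0.05 and open where it was not, with a line at the median of each list. The ERK-induced targets have medians of -0.42, -0.29 and -0.12 in the PBRM1, IRF1 and MUC1 experiments. The lists were chosen with earlier results of these data known.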

How the data were processed

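The authors deposited 3 tables of TPM (transcript levels per gene length, scaled to 1000000 per library over all genes listed), 1 per experiment, and 3 tables of DESeq2 results. From the latter the deposited mean normalized count signal over 6 libraries was used as a guide to depth. Their columns of fold changes, scores and p-values hold the authors' own comparisons and were not used. The submitters' processing notes name STAR, DESeq2 and GRCh38, and the library kit was stranded and selected mRNA. Read counter and annotation were not given in the sources used here. Depth per library is unknown, so no counting interval was computed.

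TPM were tested as log2(TPM + 1) for genes at 1 TPM or more in at least 3 of 6 libraries, by limma (version 3.58.1, R version 4.3.3; linear model with trended empirical Bayes moderation, two-sided, p-values adjusted by Benjamini-Hochberg over all genes tested) and no replicate block. This scale understates the change of genes near or below 1 TPM. Each table was fitted alone, without counts, since the tables hold none per library. The moderation of the spread had 4.98 prior degrees of freedom in MDA-MB-436 and an infinite number in BT-549, where standard errors follow expression level. The scripts were tested on simulated data. The control columns of the PBRM1 table match no single sample label and were assigned to their group only, called a, b and c. There, libraries whose column names end in the same number deviated together (correlations of 0.455, 0.309 and 0.290 after centering each group). Libraries with unlike numbers had correlations from -0.377 to 0.114. These numbers may therefore pair the libraries, but the source of the correlations was not tested. The main tests used no block, and the block is given as an alternative. What the number marks is not stated. Identical columns numbered 0.

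The members, the 5 pathway lists (86 symbols, older names included) and the marker lists were chosen with earlier results of these data known. Genes named from a list are up to 4 per list and comparison, those past the test with the largest absolute log2 fold, and members tested in each table. Not every gene that this rule names is reported here. BTC, and NRG1 with IRF1shRNA, were named after their values were seen, as was SLC25A26, for its overlap with LRIG1. Alternatives were other pseudocounts, filters, scalings and spreads, and leaving out each library.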

Additional observations from a re-analysis of the deposited data

Results flagged for a closer look

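AREG and LRIG1 had effects of opposite sign between the experiments, every silenced library lying on one side of its controls. Groups without overlap were common, at 62.0% of tested genes with PBRM1shRNA, 33.9% with IRF1shRNA and 59.2% with DOX. How many other genes changed sign between the experiments was not counted. The differences in log2(TPM + 1), silenced over control, were -1.38 with PBRM1shRNA, -0.0713 with IRF1shRNA and 3.01 with DOX for AREG. For LRIG1 they were 0.39, 0.21 and -1.97. The AREG difference with IRF1shRNA and both BT-549 differences of LRIG1 are of genes under 1 TPM. The experiments used different lines and separate tables, so the difference between experiments was not tested. Groups of 3 libraries were not searched for outlying samples.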

How the results depend on the processing

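Over 277 alternative values for the folds of the 9 genes, 243 kept their direction and side of the threshold, 7 lost and 18 gained a call, and 9 reversed. With HBEGF and ERRFI1 in the PBRM1 experiment and EGFR, EREG and LRIG1 with DOX, the call held under each alternative that could be fitted. AREG was also called under each of these with PBRM1shRNA and with DOX. It met the filter only through the group where it was high, so its calls after a filter are no support. With no filter, the adjusted p was 1.94e-05 with PBRM1shRNA and 2.09e-04 with DOX (limma). The reversals were of small folds that did not pass the test on TPM as deposited: ERBB2 with PBRM1shRNA (0.0150 with quantile scaling), EGFR with IRF1shRNA (0.0698 with short noncoding RNAs removed, 0.0378 with median-of-ratios and 0.0497 with quantile scaling, and -0.124 to 0.0713 leaving out single libraries), HBEGF with IRF1shRNA (-0.0588 to 0.104 likewise, but called with quantile scaling at 0.109, limma, adjusted p = 0.0141) and ERBB3 with DOX (-0.0444 to 0.193).

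With PBRM1shRNA, 2 of the 9 genes instead of 1 were higher with no filter, short noncoding RNAs removed, median-of-ratios scaling, quantile scaling or the replicate block (1 to 2 leaving out single libraries), and 1 instead of 2 was lower with a filter at a mean of 5 TPM, which removes AREG, and 3 with no filter or short noncoding RNAs removed. With IRF1shRNA, 1 instead of 0 was higher with no filter, short noncoding RNAs removed or quantile scaling. There, 2 instead of 1 were lower with no filter, short noncoding RNAs removed, either other scaling or no mean-variance trend, and 0 with a mean of 5 TPM, no moderation or the replicate block (0 to 1 leaving out single libraries).

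Genes of the pathway lists that rose with PBRM1shRNA numbered 10, 23 with median-of-ratios or quantile scaling and 17 with the replicate block. With IRF1shRNA 0 rose, but 13 with short noncoding RNAs removed, 15 with median-of-ratios and 20 with quantile scaling, and 0 to 4 leaving out single libraries. There 19 fell, 10 with no filter, 6 with a mean of 5 TPM, 29 with short noncoding RNAs removed or median-of-ratios scaling, 4 without moderation, 8 with the replicate block, and 7 to 19 leaving out single libraries. Over all genes, 526 rose and 1693 fell with IRF1shRNA, with ranges of 66 to 4201 and 506 to 3727 over alternatives, and with PBRM1shRNA 2620 rose (up to 4548) and 3707 fell (1801 to 5988). The cause was not tested.

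Same-numbered libraries did not all deviate together in the IRF1 (correlations of -0.209, 0.085 and 0.228) or MUC1 experiment (0.053, -0.036 and 0.006). The block cost ERBB2 its call with IRF1shRNA (limma, adjusted p = 0.128) and took genes higher and lower over all from 526 and 1693 to 189 and 927, and not every library there correlated best with its own number. In the PBRM1 experiment it changed no call among the 9 genes except that of EGFR.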
